A study of Homo sapiens with 18 samples.

Results

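The STAT and IRF transcription factors described here were 9 genes, STAT2, STAT3, STAT5A, STAT6, IRF1, IRF2, IRF3, IRF7 and IRF9, taken by name, with no cut-off on a measured value, from the 55765 gene symbols of 2 RNA sequencing series. Both series used OVCAR3, an established cell line of high-grade serous ovarian cancer, grown in RPMI medium with 2% serum. In the first series cells received non-antigen-specific human IgA, non-antigen-specific human IgG or no antibody, and in the second they received IgA against BDNF, IgA against TSPAN7 or no antibody. The BDNF and TSPAN7 antibodies came from immortalised B cells of ovarian tumours. Each of the 6 groups had 3 libraries, and antibody was given at 0.5 µg/ml for 24 h according to the labels, although another description of the same cultures gives a shorter time. The comparisons asked which transcripts changed when tumour cells met IgA. Controls were IgG and untreated cells in the first series, and untreated cells alone in the second. In the second series, effects of the antigen, of IgA as such and of the antibody preparation therefore cannot be told apart. All 6 groups were 1 cell line, and the labels do not say whether libraries of a group came from separate cultures, although a description in the study calls the libraries of the first series separate experiments, so p-values measure the spread between these libraries, which may be in part technical. Comparisons were made within each series, because the counts of the series were deposited apart and differed in level even between their untreated cells.

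STAT proteins are latent cytoplasmic factors that are phosphorylated by JAK kinases below cytokine and interferon receptors and then enter the nucleus. STAT2 and IRF9 are subunits of ISGF3, the complex that drives type I interferon target genes from interferon-stimulated response elements. STAT3 carries signals of IL-6, LIF and related cytokines, STAT5A those of prolactin and several growth factors, and STAT6 those of IL-4 and IL-13. Among the IRF proteins, IRF3 and IRF7 are activated below sensors of foreign nucleic acid and switch on interferon genes, IRF1 is induced by interferon gamma and inflammatory cytokines and activates antigen-presentation genes, and IRF2 competes with IRF1 for many of the same sites. IRF7, IRF9 and STAT2 are themselves interferon target genes. Much of the control of this family acts on the proteins, which RNA counts do not measure.

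Start-site sequences were searched for letters that these factors read, because 2 of the members with changed RNA, IRF1 and IRF9, are known STAT targets. A kB motif, which NF-kB proteins rather than STAT or IRF proteins read, was searched for too. The RefSeq promoter table (GRCh38.p14, 250 bases before to 50 after the start site) held 6 of the 9 genes, STAT2, STAT3, STAT5A, STAT6, IRF1 and IRF9. Both strands were searched. The window of IRF1 held a gamma-activated site (TTC and GAA parted by any 3 bases, the letters bound by STAT dimers) that began 124 bases before the start site. It also held a kB motif (GGGA and CC parted by any 4 bases) that began 50 bases before the start site. That match lay on the opposite strand, so the printed letters read GG and TCCC parted by 4 bases. The window of IRF9 held a gamma-activated site that began 63 bases before the start site. The 2 stretches are shown with matches in capitals and were placed by an exact match to GRCh37. That of IRF1 lies at chr5:131826505-131826615 on the minus strand, from 150 to 40 bases before the start site, with no annotated exon. That of IRF9 lies at chr14:24630401-24630429 on the plus strand, from 73 to 45 bases before the start site, within an annotated untranslated exon. No match overlapped another.
IRF1: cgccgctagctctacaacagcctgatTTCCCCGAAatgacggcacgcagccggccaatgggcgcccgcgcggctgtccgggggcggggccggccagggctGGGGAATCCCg
IRF9: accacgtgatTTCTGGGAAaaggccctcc

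A gamma-activated site was present in 7.66% of the 35116 promoters of the table and a kB motif in 25.6%. The window of STAT6 held 1 kB match, 64 bases before the start site, and those of STAT2, STAT3 and STAT5A held none of the motifs searched. An interferon-stimulated response element (GAAA and GAAA parted by any 2 bases), present in 3.57% of all promoters, was found in none of the 6 windows. These matches describe letters in 1 window per gene and say nothing about binding.

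Library totals ran from 27920733 to 47381836 counts. The third IgA library of the first series stood apart, with 19.1% of its counts from mitochondrial genes against 5.75 to 8.32% in the other 8 libraries of that series and 8.60 to 10.2% in the second series. The 3 IgA libraries had 16062 to 16959 genes with at least 10 counts, and every other library had at least 17136. Each member's fold change between IgA and IgG is therefore also given without that library. All 10 markers of serous epithelium exceeded 1 CPM, a depth-scaled count, in every library, whereas the summed level of 8 leukocyte markers was 0.691 to 2.02 CPM and 2 of the 8 were at 0 throughout. Of 5 fibroblast markers 2 exceeded 1 CPM in every library, and their summed level was 67.0 to 110 CPM in the IgA libraries, 62.4 to 71.9 CPM in the first-series controls and 67.0 to 90.0 CPM in the second series, and their part in the results was not tested. The dispersion, a measure of scatter between replicates, was 0.0307 for the first series but 0.00303 for the second, where smaller changes could thus be called.

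Levels per length differed widely within the family. They are given as RPKM, the depth-scaled read count per kilobase of the canonical transcript (mean ± SD, n = 3). In untreated cells of the first series STAT3 (24.7 ± 1.26) and IRF3 (23.9 ± 1.24) were highest and did not differ beyond their spread. IRF2 followed at 15.6 ± 0.616. IRF1 (10.4 ± 1.10), STAT6 (9.91 ± 0.522) and STAT2 (9.80 ± 0.387) formed a middle group in which neighbours overlapped. IRF7 (0.994 ± 0.133) and IRF9 (0.611 ± 0.239) were low, and STAT5A was nearly undetected at 0.0435 ± 0.0129. In untreated cells of the second series the order was STAT3 (37.2 ± 0.506), IRF3 (33.9 ± 0.543), STAT6 (17.0 ± 0.689), IRF2 (15.6 ± 0.307), IRF1 (14.3 ± 0.466), STAT2 (9.32 ± 0.416), IRF7 (4.67 ± 0.140), IRF9 (1.09 ± 0.404) and STAT5A (0.0206 ± 0.0266), with no overlap between neighbours. When all annotated exons of a gene were merged into 1 length, STAT2 ranked above IRF1 in both, overlapping it in the second series, and STAT6 (5.38) overlapped and ranked above IRF2 (5.25) in the first.

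**Figure D1:**
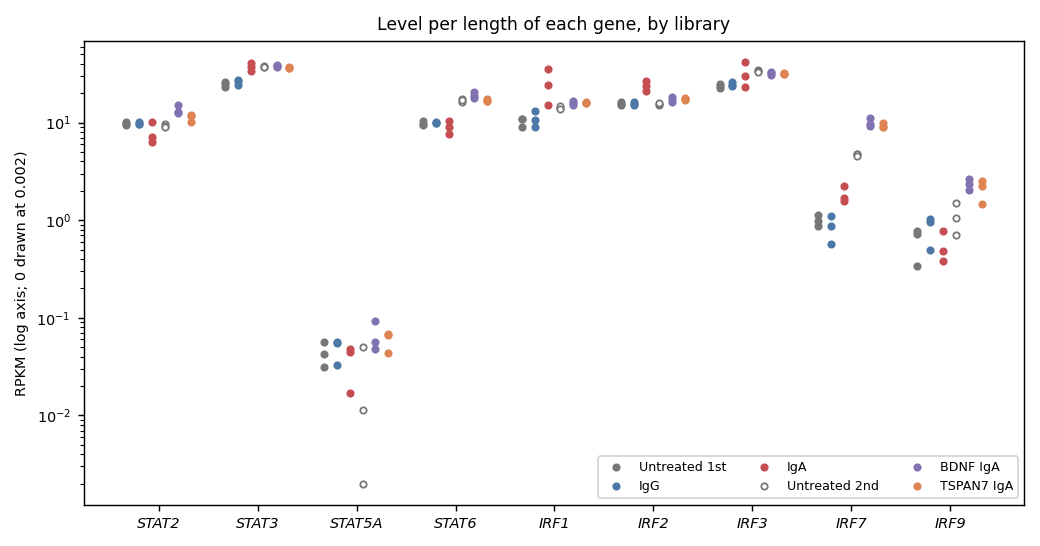
Level per length of each gene in each library, in RPKM on a log axis, with 1 point per library and colours for the 6 groups. STAT3, IRF3, IRF2, IRF1, STAT6 and STAT2 lay near or above 10 RPKM in most libraries. IRF7 was lower except with BDNF or TSPAN7 IgA (8.93 to 11.1 RPKM), IRF9 was lower throughout, and STAT5A was below 0.1 RPKM everywhere.

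The order shifted with treatment in the first series. In IgA-treated cells IRF1 rose in rank to 24.9 ± 10.1 RPKM, beside IRF2 (23.8 ± 2.81) and IRF3 (31.8 ± 9.47), which it overlapped, and STAT2 (7.86 ± 2.01) overlapped STAT6 (9.09 ± 1.40). In BDNF IgA-treated cells IRF7 reached 9.97 ± 1.04 RPKM, below STAT2 at 13.4 ± 1.39, an order that turned with merged exons (7.34 and 6.36, overlapping). Some exon sequence is shared with other genes in the GENCODE v44lift37 annotation, and a strand setting of the counting was not stated. Of all merged exons, shared bases were 22.9% for IRF1, mainly with the antisense gene IRF1-AS1, and 19.3% for IRF3 with BCL2L12. They were 27.2% for IRF9 and 6.50% for STAT5A with STAT5B. In bases, IRF1-AS1 shared 2805 with IRF1, BCL2L12 734 with IRF3, and a same-strand gene 1544 with IRF9. The canonical transcripts, the lengths used for RPKM, have 3554, 1595 and 1626 bases, and the part of them that is shared was not computed. STAT2, STAT3, IRF2 and IRF7 shared none. BCL2L12 and STAT5B were among the gene symbols counted, whereas IRF1-AS1 and the neighbours of IRF9 were not there under their present names. Values of IRF1, IRF3, IRF9 and STAT5A may therefore include or lack reads of those neighbours.

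Non-antigen-specific IgA was followed by more RNA of IRF1, IRF7, IRF2 and STAT3 than IgG. A gene was called when its adjusted p was under 0.05 by edgeR's quasi-likelihood test over all genes, and 4 of the 8 members that passed the filter on low counts were called higher and none lower. Of all 18012 genes tested 24.2% were called, 12.6% higher and 11.6% lower. The median log2 fold change of the 8 members was 0.44, against −0.01 over all genes tested. With library size alone as the scaling, in place of the trimmed mean of M values (TMM), the all-gene median moved to −0.25, calls over all genes went from 2265 higher and 2095 lower to 873 higher and 3631 lower, and the members to 3 higher and 2 lower. In a fit of only the 6 libraries compared, 2925 genes were called rather than 4360. The same 4 members stayed higher there, with adjusted p from 0.0105 to 0.0426. Without the third IgA library 4 members were higher and 1 lower. In a bulk sample, fewer cells of a state and less RNA per cell cannot be told apart.

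STAT3, at chr17:40465342-40540558 on the minus strand, is the effector of IL-6 family cytokines. Its normalised counts were 6402, 5839.9 and 7142 in the IgA libraries, 4594, 4706 and 4206 in the IgG libraries, and 4486, 4299.6 and 4051 in untreated cells. Every IgA library lay above every control library, and the IgG and untreated libraries overlapped. Against IgG the log2 fold change was 0.52 (SE 0.10, adjusted p = 0.00289) and against untreated cells 0.59 (SE 0.10, adjusted p = 0.00119). Without the third IgA library it was 0.44 against IgG (adjusted p = 0.00414). With library size alone it was 0.28 against IgG (adjusted p = 0.0880), and the call was lost.

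STAT2, at chr12:56735381-56753987 on the minus strand, supplies the activation domain of ISGF3. It measured 989, 1096 and 1575 normalised counts with IgA, 1495, 1581 and 1499.8 with IgG, and 1519, 1583 and 1463 without antibody. The first and second IgA libraries lay below all 6 controls, whereas the third lay among them. Its log2 fold change of −0.33 against IgG (SE 0.15, adjusted p = 0.123) did not pass the threshold. Without the third IgA library it was −0.55 (adjusted p = 0.00168) and was called lower, as it was with library size alone (−0.58, adjusted p = 0.00728). Against untreated cells the corresponding values were −0.32 (adjusted p = 0.127) with all libraries and −0.55 (adjusted p = 0.00163) without the third.

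STAT6, the effector of IL-4 and IL-13, had 1073, 1270.1 and 1464 normalised counts with IgA, against 1373 to 1409.8 with IgG and 1332 to 1468 in untreated cells. The IgA libraries reached both below and into the control range. The log2 fold change against IgG was −0.14 (95% interval −0.39 to 0.12, adjusted p = 0.430), without the third IgA library −0.25 (adjusted p = 0.0970), and with library size alone −0.38 (adjusted p = 0.0424). STAT5A, which mediates prolactin and growth factor signals, had 2 to 6 raw counts in the IgA libraries, 4 to 8 in the IgG libraries and 4 to 9 in untreated cells. It did not pass the filter in this series, and a difference was not detectable at this depth.

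IRF1, at chr5:131776132-131844411 on the minus strand, activates antigen-presentation and apoptosis genes. In IgA-treated cells its normalised counts were 3032, 1894 and 4415. They were 1124, 1337 and 1636 with IgG and 1377, 1138 and 1379 without antibody. All IgA libraries exceeded all controls, but the coefficient of variation within the IgA group was 40.6%, against 18.8% and 10.7% in the other groups. IRF1 was 2.28-fold higher than with IgG (log2 fold change 1.19, SE 0.24, adjusted p = 0.00355) and 2.39-fold higher than in untreated cells (1.26, adjusted p = 0.00233). Without the third IgA library the log2 fold change against IgG was 0.85 (adjusted p = 0.00435), and it was called under each of the 17 alternatives tried, with adjusted p of at most 0.0185.

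IRF2, at chr4:185306856-185395712 on the minus strand, is the IRF1 competitor. It had 1867, 1689.8 and 2134 normalised counts with IgA, 1304, 1224 and 1201 with IgG, and 1230.3, 1205 and 1299 in untreated cells. The lowest IgA library was well above the highest control. Its log2 fold change was 0.61 against IgG (SE 0.11, adjusted p = 0.00181) and 0.61 against untreated cells (adjusted p = 0.00167). Without the third IgA library it was 0.51 against IgG (adjusted p = 0.00230), and this gene too was called under all 17 alternatives.

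IRF7, at chr11:612553-615983 on the minus strand, is the interferon-inducible factor that amplifies interferon production. Its normalised counts were few in this series, at 115, 106 and 153 with IgA, 58.8, 75.6 and 38.4 with IgG, and 76.8, 66.4 and 58.8 in untreated cells. All IgA libraries lay above all controls, and the IgG and untreated libraries overlapped. Against IgG it rose by 1.10 on the log2 scale (SE 0.30, adjusted p = 0.0171) and without the third IgA library 0.93 (adjusted p = 0.0355). Without the third IgG library, the lowest of all, it was 0.88 (adjusted p = 0.0700), and the call was lost. Against untreated cells the value was 0.89 (adjusted p = 0.0418), and that call was lost in 10 of 17 alternatives, among them leaving out the third IgA library (0.72, adjusted p = 0.0910).

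IRF3, at chr19:50162826-50169132 on the minus strand, is the constitutively made partner of IRF7. It had 1695, 1307 and 2360.0 normalised counts with IgA, 1458, 1366 and 1319.8 with IgG, and 1269.8, 1409 and 1344 in untreated cells. The first and the third IgA libraries lay above all controls, the third furthest, and the second lay among them. Its log2 fold change against IgG was 0.37 (95% interval 0.01 to 0.73, adjusted p = 0.124). It was 0.12 (adjusted p = 0.506) without the third IgA library and 0.55 (adjusted p = 0.0111) without the second.

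IRF9, at chr14:24630443-24637252 on the plus strand, is the DNA-binding subunit of ISGF3. It was counted at 14 to 63 reads per library in this series. Normalised counts were 44.8, 28 and 22.1 with IgA, 58.8, 28.2 and 54.9 with IgG, and 44.6, 19.3 and 41.1 in untreated cells. All 3 groups overlapped. The log2 fold change of −0.56 against IgG had a 95% interval of −1.55 to 0.42 (adjusted p = 0.395), wide enough to hold a change of more than 1 log2 unit. Without the third IgA library it was −0.38 (adjusted p = 0.592).

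**Figure D2:**
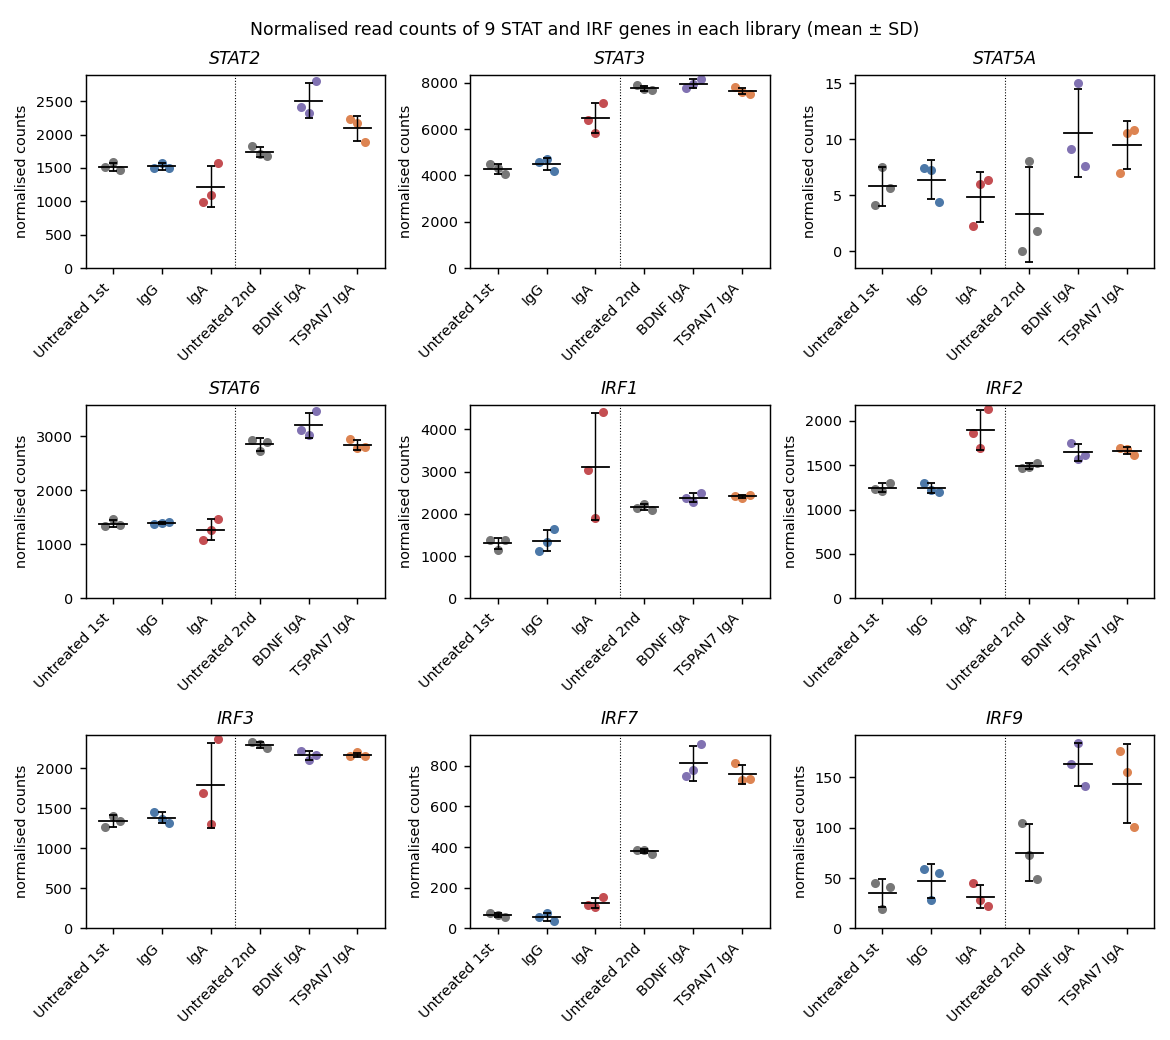
Normalised read counts of the 9 genes, with 1 point per library and bars for the mean ± SD of 3 libraries. The dotted line parts the 2 series, each scaled on its own, and the IgA libraries stood above both controls for STAT3, IRF1, IRF2 and IRF7, whereas in the second series STAT2, IRF7 and IRF9 stood highest with antigen-specific IgA.

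IgG and untreated cells differed in no tested member at the threshold, which does not show that their levels were equal. Of the 8 members tested, 0 were called, and of all 18012 genes 0% were called by edgeR, with 89 genes and none of the members at an unadjusted p under 0.05. DESeq2 called 0 genes too, with 110 at an unadjusted p under 0.05. Member log2 fold changes ran from −0.22 for IRF7 (95% interval −0.86 to 0.43) to 0.43 for IRF9 (−0.53 to 1.40). The narrowest interval was that of STAT3, from −0.14 to 0.29 around 0.07. The spread used for these intervals included the IgA libraries. In an edgeR fit of only the 6 libraries compared, 0 genes were called and 338 had an unadjusted p under 0.05. There the SE of STAT2 was 0.08, against 0.15 with all libraries, and that of IRF3 0.08, against 0.17. IgA and untreated cells differed in the same 4 members as IgA and IgG, in a comparison where 25% of all genes were called, 12.9% higher and 12.1% lower, but the 2 comparisons share the IgA libraries.

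**Figure D3:**
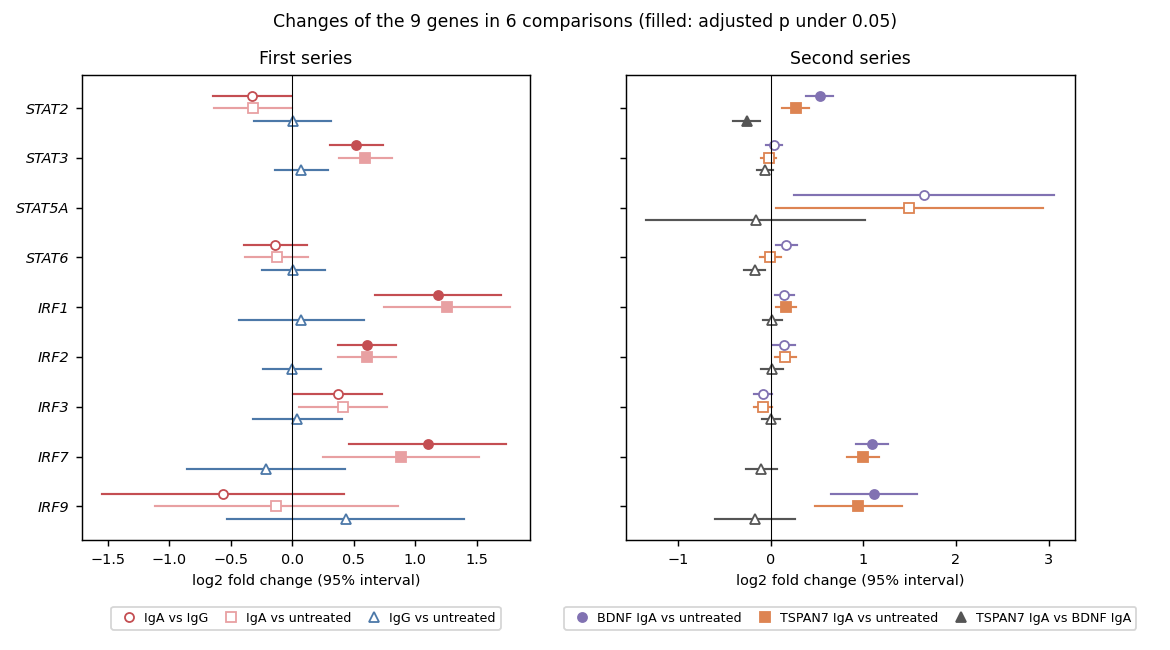
Log2 fold changes of the 9 genes with 95% intervals in 6 comparisons, the first series on the left and the second on the right, with filled symbols for calls. Calls with IgA in the first series were STAT3, IRF1, IRF2 and IRF7, and in the second series STAT2, IRF7, IRF9 and, with TSPAN7 IgA, IRF1. STAT5A was tested in the second series alone.

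With BDNF IgA the ISGF3 subunits STAT2 and IRF9 rose, together with IRF7. These were 3 of the 9 members, all higher, where 7.67% of the 18732 genes tested were called, 4.49% higher and 3.18% lower. With TSPAN7 IgA the same 3 genes and IRF1 were called higher, 4 of 9 members, where 8.54% of all genes were called, 4.46% higher and 4.08% lower. The median log2 fold change of the members was 0.17 in each comparison. STAT5A passed the filter only through its treated libraries. Without it 3 of 8 members were called with BDNF IgA and 4 of 8 with TSPAN7 IgA, and the median was 0.16 in each. Over all genes the median was 0.00. The 2 comparisons share the 3 untreated libraries.

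STAT2 measured 2409, 2317 and 2806 normalised counts with BDNF IgA, 2229.9, 2181 and 1883 with TSPAN7 IgA, and 1828, 1706 and 1684 in untreated cells. All treated libraries lay above all untreated ones, and all BDNF IgA libraries above all TSPAN7 IgA libraries. The log2 fold change was 0.53 with BDNF IgA (SE 0.07, adjusted p = 4.14e-05), called under all 17 alternatives. With TSPAN7 IgA it was 0.27 (SE 0.07, adjusted p = 0.0183), and the call was lost without the first or second TSPAN7 IgA library or the second or the third untreated library (0.22 to 0.26, adjusted p = 0.0730 to 0.105).

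IRF9 had 163, 184 and 142 normalised counts with BDNF IgA, 176, 155 and 101 with TSPAN7 IgA, and 104, 72.8 and 48.8 in untreated cells. The BDNF IgA libraries cleared the untreated range, and the third TSPAN7 IgA library fell just inside it. IRF9 was 2.17-fold higher with BDNF IgA (log2 fold change 1.12, SE 0.22, adjusted p = 0.00297) and 1.93-fold higher with TSPAN7 IgA (0.95, SE 0.23, adjusted p = 0.0103). The TSPAN7 IgA call was lost without the first or second TSPAN7 IgA library or the third untreated library, with 0.70 to 0.89 and adjusted p from 0.0581 to 0.0780.

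Of the 9 members IRF7 had the smallest adjusted p with either antibody. Its normalised counts were 748, 781 and 909 with BDNF IgA, 812, 728 and 735 with TSPAN7 IgA, and 386, 388 and 368 in untreated cells. The treated libraries were close to one another and far from the untreated ones. It rose by 1.10 on the log2 scale with BDNF IgA (SE 0.08, adjusted p = 8.78e-09) and by 1.00 with TSPAN7 IgA (SE 0.08, adjusted p = 4.79e-08), and both calls held under all 17 alternatives.

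IRF1 moved far less. It had 2381, 2281 and 2490.1 normalised counts with BDNF IgA, 2419.7, 2379.9 and 2433 with TSPAN7 IgA, and 2137, 2226 and 2088 in untreated cells. Treated and untreated libraries did not overlap. Its log2 fold change was 0.15 with BDNF IgA (SE 0.05, adjusted p = 0.0701), which did not pass, and 0.17 with TSPAN7 IgA (SE 0.05, adjusted p = 0.0413), which was lost in 8 of 17 alternatives. The difference between the antibodies was 0.02 with a 95% interval from −0.09 to 0.12.

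IRF2 lay between 1568 and 1753 normalised counts in the 6 treated libraries and between 1464 and 1522 in the untreated ones. The log2 fold changes were 0.14 with BDNF IgA (adjusted p = 0.116) and 0.16 with TSPAN7 IgA (adjusted p = 0.0819), and neither was called. IRF3 was the member with a value below untreated cells for both antibodies, at −0.09 (95% interval −0.18 to 0.01, adjusted p = 0.303) and −0.08 (−0.18 to 0.02, adjusted p = 0.325). Its counts were 2102 to 2212 with BDNF IgA, 2149 to 2197 with TSPAN7 IgA and 2255 to 2328 without antibody.

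STAT3 stayed close to untreated cells. The 3 BDNF IgA libraries had 7780.4, 7954 and 8146 normalised counts, the TSPAN7 IgA libraries 7795, 7609.9 and 7528, and the untreated libraries 7886, 7714 and 7695. All groups overlapped. The log2 fold changes were 0.04 with BDNF IgA (95% interval −0.05 to 0.12, adjusted p = 0.667) and −0.02 with TSPAN7 IgA (−0.11 to 0.06, adjusted p = 0.809).

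STAT6 measured 3124, 3023 and 3468 normalised counts with BDNF IgA, 2945, 2784 and 2802 with TSPAN7 IgA, and 2943, 2723 and 2896 in untreated cells. All BDNF IgA libraries lay above the untreated range, and the TSPAN7 IgA libraries lay within it or at its upper edge. The log2 fold change with BDNF IgA was 0.17 (adjusted p = 0.0601), and it was called in 5 of 17 alternatives. With TSPAN7 IgA it was −0.01 (95% interval −0.12 to 0.11). STAT5A had 9, 15 and 8 raw counts with BDNF IgA, 7, 10 and 10 with TSPAN7 IgA, and 0, 8 and 2 in untreated cells. Its log2 fold changes of 1.66 (95% interval 0.26 to 3.06, adjusted p = 0.143) and 1.498 (0.06 to 2.93, adjusted p = 0.204) did not pass. STAT5A passed the filter only through its treated libraries, so these values were tilted upward before the test. Each of them moved past the threshold when the second untreated library, the one with 8 counts, was left out (3.31, adjusted p = 0.0356, and 3.15, adjusted p = 0.0447). Only counts of 0 and 2 then remained for untreated cells, so that shift is no sign of a change.

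Between the antigen-specific antibodies, STAT2 was the member that differed. TSPAN7 IgA left it below its level with BDNF IgA (log2 fold change −0.26, SE 0.07, adjusted p = 0.0249), 1 of 9 members where 7.92% of all genes were called, 3.42% higher and 4.50% lower. That call was lost without the third BDNF IgA library (−0.17, adjusted p = 0.204), the second TSPAN7 IgA library (−0.29, adjusted p = 0.0631) or the third TSPAN7 IgA library (−0.19, adjusted p = 0.151). STAT6 was next at −0.17 (adjusted p = 0.0519) and was called lower in 6 of 17 alternatives. IRF7 (−0.10, 95% interval −0.26 to 0.06) and IRF9 (−0.17, −0.61 to 0.26) were not called.

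**Figure D4:**
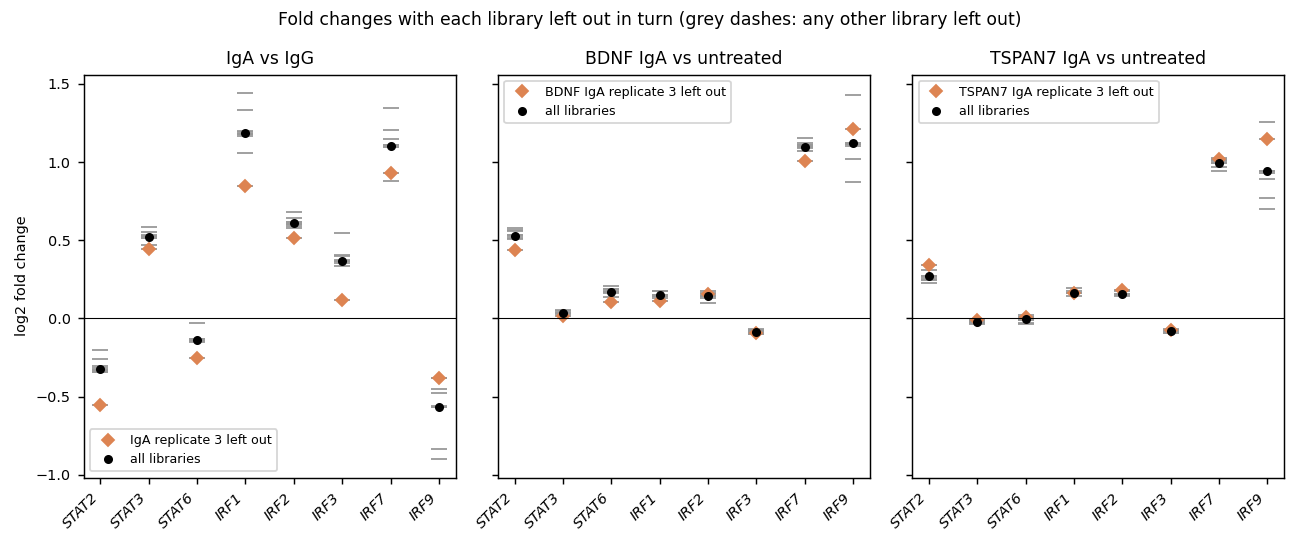
Log2 fold changes of 8 of the genes when 1 library at a time was left out, for 3 comparisons, with all libraries as a black point and the third library of the treated group left out as a diamond. Leaving out the third IgA library moved IRF1, IRF3 and STAT2 furthest on the left, whereas IRF7 and STAT2 with BDNF IgA stayed close to their values and IRF9 spread most.

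Set side by side against untreated cells, the members had these values, whose differences between series were not tested because comparisons were kept within a series. STAT3 and IRF2 had log2 fold changes of 0.59 and 0.61 with non-antigen-specific IgA and between −0.02 and 0.16 with either antigen-specific IgA. IRF1 had 1.26 against 0.15 and 0.17. STAT2 had −0.32 against 0.53 and 0.27, and IRF9 had −0.13 (95% interval −1.12 to 0.86) against 1.12 and 0.95. IRF7 had 0.89, 1.10 and 1.00, and STAT6 −0.13, 0.17 and −0.01.

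The genes closest to each called member were found by the Euclidean distance between their 4 log2 fold changes against untreated cells, among 13346 other genes with a mean of at least 50 normalised counts in each series. For STAT3 they were CD151 (distance 0.0508), CHCHD6 and NR2C1, and for IRF2 PRRG1 (0.0191), ERAP2 and ITPKC. IRF1 was closest to SEC14L1 (0.0597), the receptor tyrosine kinase gene MET and TICAM1, which encodes the TLR3 adaptor TRIF. STAT2 had ZNF467 (0.100), SLC2A10 and C4orf33 beside it. IRF7 had no close neighbour, with RBFOX3 at a distance of 0.301 and then the interferon-inducible genes PLSCR1 and HELZ2 at 0.475 and 0.498. IRF9 was below the level needed. Each list is a description over 4 values that share libraries within a series.

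STAT5B, the close relative of STAT5A, rose with non-antigen-specific IgA, by 0.60 against IgG (adjusted p = 0.00883) and by 0.72 against untreated cells (adjusted p = 0.00308). It was not called with BDNF IgA (0.17, adjusted p = 0.0788) or TSPAN7 IgA (0.18, adjusted p = 0.0687). Of 8 relatives tested in the first series, 2 were higher with IgA than with IgG, STAT5B and IRF8 (1.19, adjusted p = 0.0111), and 1 lower, the corepressor gene IRF2BP1 (−0.66, adjusted p = 0.0167). In the second series 2 of 8 were higher with BDNF IgA, among them the corepressor gene IRF2BP2 (0.23, adjusted p = 0.00952), and 1 with TSPAN7 IgA. Between TSPAN7 and BDNF IgA 1 was lower, again IRF2BP2 (−0.22, adjusted p = 0.0162). Over all genes 24.2% were called with IgA against IgG, 7.67% with BDNF IgA, 8.54% with TSPAN7 IgA and 7.92% between these antibodies.

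Upstream of the STATs, 7 of 17 receptor and JAK kinase genes were higher and 2 lower with IgA than with IgG, beside 24.2% of all genes called. Their median log2 fold change was 0.18, and 0.01 without the third IgA library. The interferon gamma receptor subunits IFNGR1 (0.95, adjusted p = 8.74e-05) and IFNGR2 (0.82, adjusted p = 0.000695) were higher. The IL-6 receptor gene IL6R (−0.55, adjusted p = 0.0190) and the type I interferon receptor gene IFNAR1 (−0.36, adjusted p = 0.0414) were lower. In the second series 2 of 17 were higher with BDNF IgA, beside 7.67% of all genes called. With TSPAN7 IgA 1 was higher and 2 lower, beside 8.54% of all genes called. IFNGR1 was higher with each (0.36, adjusted p = 0.000542, and 0.40, adjusted p = 0.000103), and JAK3 was lower with TSPAN7 IgA (−0.68, adjusted p = 0.00730).

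Most ligand genes were too low to test, and 4 of 14 passed the filter. The 1 interferon gene among them was IFNE, an epithelial interferon of the reproductive tract, which was called in none of the 6 comparisons (−1.70 with IgA against IgG, adjusted p = 0.140, −0.05 with BDNF IgA, adjusted p = 0.913, and −0.23 with TSPAN7 IgA, adjusted p = 0.517). The other interferon genes of the list, IFNB1, IFNA1, IFNK, IFNG, IFNL1, IFNL2 and IFNL3, had at most 7 raw counts in any library. With IgA against IgG 3 of the 4 ligand genes tested were higher, beside 24.2% of all genes called. Among them were IL6 (4.53, adjusted p = 1.49e-07) and IL11 (3.94, adjusted p = 0.000654), both ligands of receptors that signal through STAT3. IL6 had 674, 837 and 1050.5 normalised counts with IgA, against 31.8 to 46.7 with IgG and 19.3 to 26.9 in untreated cells. The IgA libraries were more than 10 times any control. With TSPAN7 IgA IL6 was higher by a log2 fold change of 1.35 (adjusted p = 0.000298) and LIF by 0.43 (adjusted p = 0.000115), and with BDNF IgA LIF by 0.24 (adjusted p = 0.0239).

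Among 17 inhibitors of the pathway, 1 was higher and 2 were lower with IgA than with IgG, beside 24.2% of all genes called. SOCS6 was higher (0.87, adjusted p = 0.000595), whereas SOCS3, the feedback inhibitor of gp130 receptors, was lower (−1.27, adjusted p = 0.00286), as was SOCS4 (−0.70, adjusted p = 0.000289). The SOCS3 normalised counts were 1029, 1100.2 and 420.2 with IgA, 2108, 2031 and 2048 with IgG, and 1984, 1983 and 2024 in untreated cells. All IgA libraries lay below the controls, the third furthest. Without that library, 3 inhibitors were higher and 3 lower, beside 4796 of 18614 genes called. In the second series SOCS3 was also lower, by 0.22 with BDNF IgA (log2 fold change −0.22, adjusted p = 0.0449) and more so with TSPAN7 IgA (−0.54, adjusted p = 1.26e-05). USP18, the interferon-induced brake on IFNAR2, was higher with each (0.71, adjusted p = 6.50e-06, and 0.72, adjusted p = 4.11e-06).

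Of 13 tested activators of IRF3 and IRF7, 2 were higher and 2 lower with IgA than with IgG, beside 24.2% of all genes called. TICAM1 (1.22, adjusted p = 0.000103) and TMEM173, which encodes STING (0.66, adjusted p = 0.00510), were higher, and TLR3 (−1.11, adjusted p = 0.00110) and IKBKE (−0.62, adjusted p = 0.00827) were lower. With each antigen-specific IgA 4 of 13 were higher and none lower, beside 7.67% of all genes called with BDNF IgA and 8.54% with TSPAN7 IgA. The RNA sensor genes IFIH1 (1.00, adjusted p = 1.07e-08, and 0.93, adjusted p = 3.92e-08) and DDX58 (0.78, adjusted p = 4.13e-08, and 0.73, adjusted p = 1.34e-07) led in both.

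ISGF3 target genes are the classical type I interferon response. All 23 of the list were called higher with BDNF IgA, with a median log2 fold change of 1.46, and 22 with TSPAN7 IgA, with a median of 1.42, against all-gene medians of 0.00. IFI27 had 7647, 6623 and 8689 normalised counts with BDNF IgA, 5846, 5859 and 6212 with TSPAN7 IgA, and 1032, 1164 and 835 in untreated cells. IFI27 and IFI44L rose most with BDNF IgA, each by 2.92, and with TSPAN7 IgA by 2.57 and 2.61. With IgA against IgG 1 of the 23 was higher, the ubiquitin ligase gene HERC5 (0.65, adjusted p = 0.0255), and 1 lower, CMPK2 (−1.29, adjusted p = 0.0408), around a median of −0.02. Against untreated cells 1 was higher and 2 were lower with IgA, around a median of −0.19. IFI27 was at 250.03 to 272 normalised counts with IgA and 214 to 313 with IgG, overlapping throughout. Between the antigen-specific antibodies 4 of 23 were lower with TSPAN7 IgA and none higher, among them IFITM1 (−0.43, adjusted p = 0.000664) and IFI27 (−0.36, adjusted p = 0.0101). Over all genes 7.67% were called with BDNF IgA, 8.54% with TSPAN7 IgA and 7.92% between them. With IgA 24.2% were called against IgG and 25% against untreated cells.

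**Figure D5:**
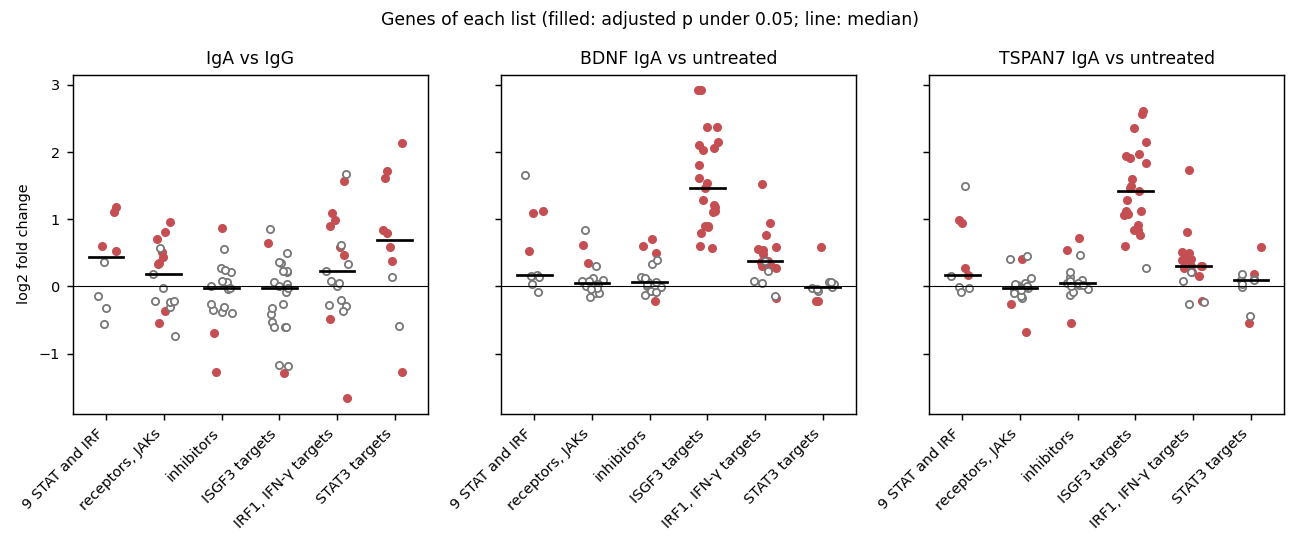
Log2 fold changes of the genes of 6 lists in 3 comparisons, with 1 point per tested gene, filled where called, and a line at the median of each list. The ISGF3 targets lay around a median of −0.02 with IgA and of 1.46 and 1.42 with BDNF and TSPAN7 IgA, whereas the STAT3 targets had medians of 0.69, −0.01 and 0.09.

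Genes listed as targets of IRF1 and interferon gamma were called in both series, and which factor acted on them was not tested. With IgA against IgG 6 of 19 were higher and 2 lower, with a median of 0.23, beside 24.2% of all genes called. The guanylate-binding protein genes GBP4 (1.57, adjusted p = 0.0160) and GBP1 (1.10, adjusted p = 3.73e-05) led, and CIITA, the master regulator of MHC class II (−1.66, adjusted p = 0.0184), was lower. GBP1 had 2821, 2286 and 2362 normalised counts with IgA and 1087 to 1250.7 with IgG. With BDNF IgA 13 of 19 were higher and 1 lower (median 0.37), beside 7.67% of all genes called. With TSPAN7 IgA 14 were higher and 1 lower (median 0.31), beside 8.54% of all genes called. CXCL10, a chemokine that attracts T cells, rose by 1.52 (adjusted p = 0.000132) and 1.74 (adjusted p = 1.77e-05), and GBP4 by 0.94 (adjusted p = 0.00551) and 0.81 (adjusted p = 0.0155).

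STAT3 targets, which serve survival and acute-phase responses, were mostly higher with non-antigen-specific IgA. With IgA against IgG 7 of the 10 tested were higher and 1 lower, with a median of 0.69, beside 24.2% of all genes called. Without the third IgA library 6 were higher and 1 lower, with a median of 0.55. The kinase gene PIM1 (2.13, adjusted p = 1.74e-05) and the transcription factor gene CEBPD (1.71, adjusted p = 0.000285) led, and SOCS3, which is also counted among the inhibitors, was the one that fell. PIM1 had 719, 597 and 828 normalised counts with IgA and 152 to 181 with IgG. With BDNF IgA 1 of 10 was higher and 2 were lower, and with TSPAN7 IgA 2 were higher and 1 lower. Their medians were −0.01 and 0.09, and 7.67% and 8.54% of all genes were called. PIM1 was higher in both (0.59 in each, adjusted p = 0.00146 and 0.00116). For the other lists, leaving out the third IgA library gave 7 higher and 2 lower of 19 IRF1 and interferon gamma targets, 1 higher and 2 lower of 23 ISGF3 targets (median −0.12), 2 higher and 3 lower of 13 activators (median 0.10), and the same counts for ligands and receptors.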

How the data were processed

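RNA of 18 OVCAR3 libraries was measured. Per the labels and the study's methods, the authors made libraries from total RNA, trimmed paired reads with cutadapt 1.8.1, mapped these by STAR (GRCh37), and deposited raw read counts per gene without normalisation. The methods name featureCounts with a Gencode annotation as the counter, whereas the processing notes list HTSeq 0.6.1 (and bcl2fastq 2.20.0.422) and the symbols are of older style, so counter and annotation are in doubt. Strand was not stated. In the second file 2055 of 57820 rows repeated another row exactly (1.99 to 2.46% of a library) and were removed. Groups and replicate numbers came from the sample titles. Replicates differed by more than sampling noise. Deviations of same-numbered libraries correlated weakly, which does not settle whether these libraries were paired.

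Each series was fitted once on its 9 libraries in R 4.3.3 by the two-sided quasi-likelihood test of edgeR 4.0.16, after filterByExpr and TMM scaling, and p-values were adjusted by Benjamini-Hochberg over all genes of a comparison. Standard errors are |log2 fold change| over √F. Normalised counts have been brought to a series' average effective library size. Alternatives changed scaling, filter, design, libraries or tool (DESeq2 1.42.0). The scripts were tested on simulated counts. Precision was taken from the spread between libraries, because the reads carry no molecular identifiers. Members and lists were chosen with earlier results of these data known. All 9 members and STAT5B were named, in each list up to 2 called genes with the largest and 2 with the smallest change, and the 3 nearest genes of each called member. IL6, IFI27, GBP1, PIM1 and SOCS3 were chosen after their values were seen as examples given by library. Some items are not reported here.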

Additional observations from a re-analysis of the deposited data

How the results depend on the processing

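Small groups of 3 libraries, the third IgA library and low counts of IRF9, IRF7 and STAT5A limit these values. With 1 library left out at a time, all genes called ranged from 2566 to 5286 for IgA against IgG, 2601 to 5229 for IgA against untreated cells, 734 to 2798 for BDNF IgA, 757 to 2304 for TSPAN7 IgA and 482 to 3276 between TSPAN7 and BDNF IgA, and members called from 3 to 5, 3 to 5, 3 to 6, 1 to 5 and 0 to 2. The member count was 6 without the second BDNF IgA library, 1 for TSPAN7 IgA without its first or its second library or the third untreated one, and 0 between the antibodies without the third BDNF IgA or the second or the third TSPAN7 IgA library. All-gene counts fell most without the third IgG library, the third untreated library, the third BDNF IgA library, the second TSPAN7 IgA library and the third BDNF IgA library, in the order above. With no filter on low counts 2 genes were called for IgG against untreated cells. With library size alone 5 members were called for BDNF IgA, and between TSPAN7 and BDNF IgA 2 members were called with library size alone, no filter, a minimum of 50 counts, the replicate block and DESeq2, in each case STAT2 and STAT6. With the replicate block the numbers of all genes called were 4340, 4428, 0, 1655, 1759 and 1728 in the order IgA against IgG, IgA against untreated, IgG against untreated, BDNF IgA, TSPAN7 IgA, and TSPAN7 against BDNF IgA. Deviations of same-numbered libraries correlated at −0.07 to 0.25 (first series) and −0.02 to 0.09 (second series). With 3 libraries per group, these values cannot decide whether the numbers pair libraries. The replicate block ended the IRF7 call for IgA against untreated cells (0.90, adjusted p = 0.0594).

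Signs of members turned in uncalled values only. With 1 library left out these ranged, for IgG against untreated cells, from −0.027 to 0.033 (STAT2), −0.017 to 0.053 (STAT6), −0.077 to 0.20 (IRF1), −0.037 to 0.027 (IRF2) and −0.46 to 0.00012 (IRF7), for IRF9 in IgA against untreated cells from −0.47 to 0.071, for STAT6 with TSPAN7 IgA from −0.036 to 0.019, and between TSPAN7 and BDNF IgA from −0.35 to 0.18 (STAT5A), −0.013 to 0.049 (IRF1), −0.018 to 0.061 (IRF2), −0.015 to 0.020 (IRF3) and −0.34 to 0.025 (IRF9). With library size alone IRF2 was 0.024 for IgG against untreated cells and IRF3 −0.011 between TSPAN7 and BDNF IgA. The cause of these shifts was not tested.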
